A study of Canis lupus familiaris with 25 samples.

Results

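RNA-Seq profiles of malignant prostate tissue were compared between neutered and intact dogs, taking every malignant tissue sample of the series and splitting the samples by the reproductive status in the labels. This gave 9 of the 25 samples, 6 from neutered dogs and 3 from intact dogs. The neutered dogs were PT-2 (Beagle, 10 years), PT-3 (Dachshound, 11 years), PT-5 (Tyrolean Hound, 8 years), PT-6 (mixed breed, 10 years), PT-7 (mixed breed, 12 years) and PT-9 (Beagle, 9 years). The intact dogs were PT-1 (Briard, 9 years), PT-4 (West Highland White Terrier, 9 years) and PT-8 (English Bulldog, 8 years). The labels name no treatment or engineered allele in any dog. Tissue was taken after euthanasia or came from a tissue bank, and each sample stands for 1 dog, so that breed and age differ together with reproductive status. The time between neutering and tumour was not given in the sources used here. The 16 other samples were 9 non-malignant tissues and 5 non-malignant ultrasound-guided fine-needle aspirates (US-FNA), all from intact dogs, and 2 malignant US-FNA, both from neutered dogs. The dogs of the non-malignant tissues were 1 to 16 years old, a wider range than in malignant tissue. Their breeds were Great Dane, Labrador Retriever, Cocker Spaniel, Rottweiler, Old German Shepherd Dog, Pug, Pyrenean Shepherd and mixed. The malignant US-FNA were US-4 (Miniature Pinscher, 9 years) and US-3 (mixed breed, 10 years). The dogs of the non-malignant US-FNA were 4 to 10 years old.

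The secretory epithelium of the prostate depends on androgens from the testes, which act through the androgen receptor, a transcription factor that is active when bound to its hormone. Kallikreins and prostatic acid phosphatase are secreted products of this epithelium and their genes are classical androgen targets. After neutering, the normal gland shrinks and secretes little. Prostate carcinoma in dogs occurs in neutered as well as in intact animals, and the comparison asks whether tumours of neutered and of intact dogs differ in gene expression.

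The depth was similar in both groups. Between 4611618 and 5560430 reads were counted on genes in intact dogs and between 4455090 and 5932349 in neutered dogs. Genes with at least 1 count numbered 16652 ± 694 (SD, n = 3) in intact and 16862 ± 409 (SD, n = 6) in neutered dogs, and the share of alignments that fell on no gene or could not be assigned was 60.3% ± 1.24 and 60.9% ± 0.981. Neither these measures nor the share of counts in the 10 most abundant genes differed between the groups beyond their spread (exact two-sided permutation p between 0.429 and 0.976 over the 4 measures, adjusted between 0.762 and 0.976 over 8 sample-level tests). Neutered dogs were on average 1.33 years older (10.0 ± 1.41 against 8.67 ± 0.577 years, exact permutation p = 0.262). The 4 dogs of 10 years or more were all neutered.

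No gene passed the threshold with edgeR, the main test. In edgeR's quasi-likelihood test, 0 of 13375 genes (0%) differed at a false discovery rate (FDR, the Benjamini-Hochberg adjusted p) under 0.05, and the smallest FDR was 0.981. At an unadjusted p under 0.05 there were 630 genes (4.71%), 289 with higher values in neutered dogs (2.16%) and 341 with lower values. The histogram of unadjusted p-values was close to level, with between 622 and 705 genes in each bin against 669 for an equal share. All neutered dogs lay above all intact dogs in 110 genes (0.822%) and below them in 130 genes (0.972%), in CPM (counts divided by the library total, itself scaled by the trimmed mean of M-values, TMM, over the 9 tissues). The median log2 fold change of all genes was −0.06, where positive values are higher in neutered dogs here and throughout.

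**Figure D1:**
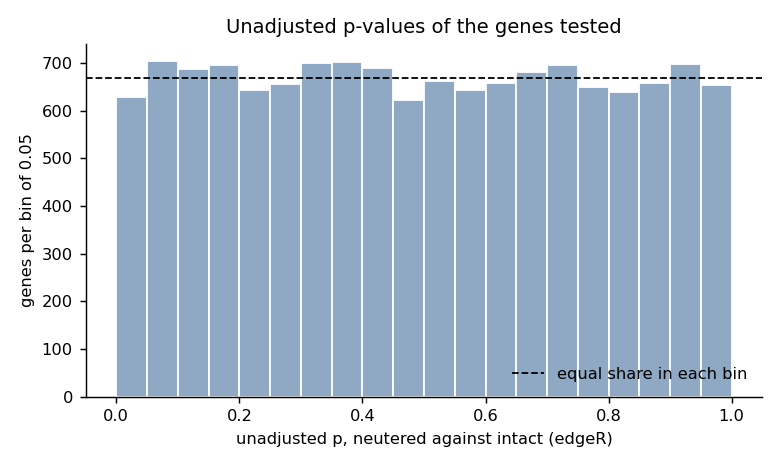
Number of genes (y axis) in each bin of 0.05 of the unadjusted edgeR p-value (x axis) for neutered against intact malignant tissue, over 13375 genes. The dashed line is the equal share of 669 genes, and the leftmost bin holds 630.

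The width of the intervals shows what 6 against 3 dogs could resolve. The median standard error of a log2 fold change was 0.50, and 90% of the genes had one between 0.27 and 1.29. The 95% interval lay within ±1 for 2758 genes (20.6%), within ±2 for 9245 (69.1%) and within ±3 for 11491 (85.9%). A log2 difference of 1 in either direction was thus outside the interval for 20.6% of the genes, and for the others the interval reached a difference of that size or more.

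DESeq2, which tests the same counts with a Wald test and its own filter, called 19 of 16621 genes (0.114%), 16 with higher and 3 with lower values in neutered dogs, and 1023 genes had an unadjusted p under 0.05. Of the 19 genes, 17 were among those tested with edgeR, where their unadjusted p ran from 0.000347 to 0.0188. Every neutered dog exceeded every intact dog in 11 of the 16 higher genes, compared with 0.822% of all 13375 genes tested with edgeR. The same dogs chose these genes, so this separation is a description and adds no support to the calls. In 2 of the 3 lower genes a single intact dog, PT-1, held 84.9% and 90.3% of all counts.

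The dog left out mattered for this count. Without PT-4, an intact dog, DESeq2 called 578 genes, which included all 19, and edgeR called 0, with 1598 genes (11.5%) at an unadjusted p under 0.05. Leaving out the intact dog PT-1 gave 121 DESeq2 calls, of which 12 were among the 19, and leaving out the intact dog PT-8 gave 19, of which 7 were among them. Leaving out 1 neutered dog gave between 12 and 31, the highest without PT-7. DESeq2 filters anew in each of these runs. The number of genes it then tested is not given here, so these DESeq2 counts have no share of all genes.

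The files hold Ensembl identifiers without gene names, and only 13 of the 380 symbols in the pathway and cell type lists compiled for this comparison could be tied to an identifier. Steroid receptors, steroid synthesis genes and the markers of luminal, basal, urothelial, immune and stromal cells were therefore not analysed here by name. Genes with known identifiers fell into androgen-regulated genes, proliferation genes, regulators of growth and haemoglobins. Of 11 such genes that passed the filter on low counts, 0 differed between neutered and intact dogs at an FDR under 0.05 with edgeR, and 0 with DESeq2, which gave KLK2 no FDR.

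KLK2 (ENSCAFG00000002907), a kallikrein protease secreted by the prostate, ranged most widely. In neutered dogs its level was 0.932 CPM in PT-2, 9.10 in PT-3, 1.48 in PT-5, 43.1 in PT-6, 4.99 in PT-7 and 691 in PT-9. In intact dogs it was 0.452 CPM in PT-1, 48.0 in PT-4 and 9.90 in PT-8. The groups overlapped, with 5 of the neutered dogs inside the range of the intact dogs and only PT-9, with 2928 counts, above it. The log2 fold change of 2.70 had a 95% interval from −2.24 to 7.63 (FDR 0.984) and became −0.69 without PT-9.

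On a common TMM scale over all 25 samples, KLK2 amounted to 0.338 to 36.2 CPM in malignant tissue of intact dogs, 0.701 to 522 CPM in that of neutered dogs and 130857 to 805877 CPM in non-malignant tissue. Even PT-9 was thus far below the lowest non-malignant tissue, and intact dogs with malignant tissue were as low as neutered ones. Against non-malignant tissue the log2 fold change was −12.22 in neutered (FDR 4.51e-05) and −14.89 in intact dogs (FDR 0.000229).

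KLK4 (ENSCAFG00000002905), a related kallikrein, was low in all 9 dogs. Its counts were between 1 and 30 in neutered dogs and 17, 1 and 11 in the intact dogs PT-1, PT-4 and PT-8. The highest dog, PT-5, was neutered, and low dogs occurred in both groups. Its log2 fold change was 0.47 (95% interval −1.75 to 2.69, FDR 0.995) and was −0.16 without PT-5.

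ACPP (ENSCAFG00000006237), which encodes prostatic acid phosphatase, was highest in an intact dog. PT-8 had 22.8 CPM, whereas PT-1 had 0.754 and PT-4 had 4.88. The neutered dogs lay between 1.06 CPM in PT-5 and 6.82 in PT-7, all inside the intact range. The log2 fold change of −1.46 (SE 0.84, 95% interval −3.34 to 0.42, FDR 0.981) became 0.32 without PT-8.

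PMEPA1 (ENSCAFG00000031382), an androgen-induced gene whose product also restrains TGF-beta signalling, was well expressed in every dog. Levels were 262, 136, 336, 427, 165 and 98.4 CPM in the neutered dogs PT-2, PT-3, PT-5, PT-6, PT-7 and PT-9, and 205, 165 and 96.0 CPM in the intact dogs PT-1, PT-4 and PT-8. The 3 highest dogs were neutered, the lowest was intact, and the groups overlapped. Neutered dogs had a log2 fold change of 0.61 with an SE of 0.51 (95% interval −0.52 to 1.74, FDR 0.984). The 4 androgen-regulated genes tested had a median log2 fold change of 0.54, compared with −0.06 over all genes, and their members pointed in both directions.

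**Figure D2:**
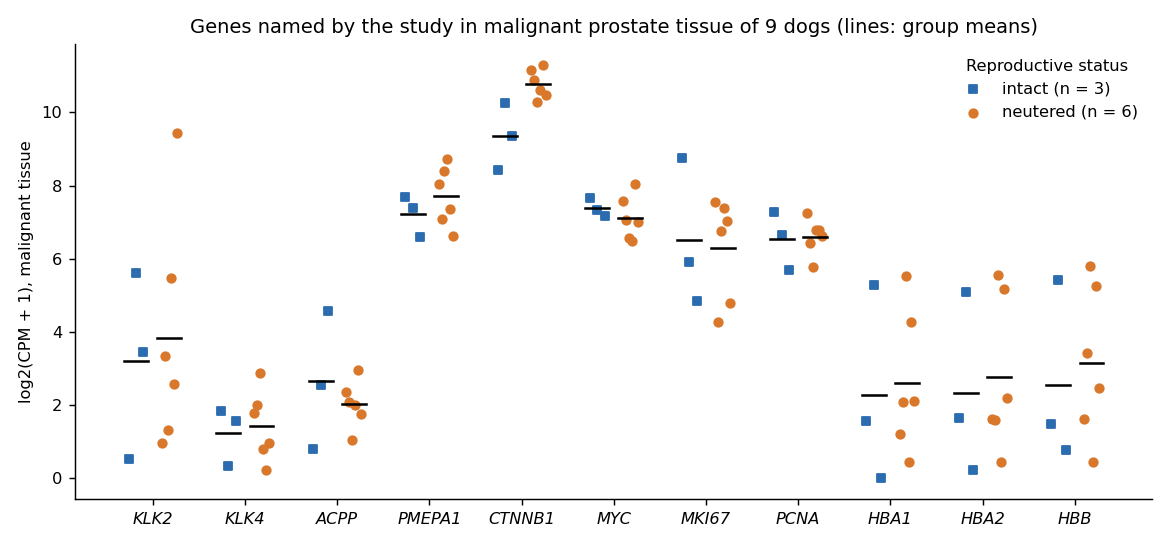
Levels of 11 genes as log2(CPM + 1) on the y axis in malignant tissue of 3 intact dogs (squares) and 6 neutered dogs (circles), with a line at each group mean. The groups overlap in each gene except CTNNB1, where the 6 neutered dogs lie above the 3 intact dogs with TMM scaling but not with DESeq2 size factors, and PT-9 stands alone at the top of KLK2 with 691 CPM.

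CTNNB1 (ENSCAFG00000005204) encodes beta-catenin, which links cadherins to the cytoskeleton and carries Wnt signals to the nucleus. It was the only one of the 11 genes in which the groups did not overlap. Over all 13375 genes, the neutered dogs lay above the intact dogs in 0.822% and below them in 0.972%. The level of CTNNB1 was 2285 CPM in PT-2, 1911 in PT-3, 1245 in PT-5, 1555 in PT-6, 2534 in PT-7 and 1429 in PT-9. Intact dogs had 345 CPM in PT-1, 1224 in PT-4 and 652 in PT-8. PT-4 and PT-5 were nearly level, and with the size factors of DESeq2 in place of TMM the groups overlapped. The mean was 1827 ± 508 CPM (SD, n = 6) in neutered and 740 ± 446 CPM (SD, n = 3) in intact dogs.

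The log2 fold change of CTNNB1 was 1.30 (SE 0.50, 95% interval 0.20 to 2.41), with an unadjusted edgeR p of 0.0253 and an FDR of 0.981 over all genes, so it did not pass the test. The exact permutation test of the log2 CPM gave p = 0.0238, the smallest p that 84 assignments of the dogs allow, among 11 genes tested in this way. With age in the model the log2 fold change was 0.94. Over the alternative settings it lay between 0.94 and 1.88, and its FDR was never under 0.294. Relative to non-malignant tissue CTNNB1 rose in both groups, by 2.77 on the log2 scale in neutered dogs (SE 0.23, FDR 1.09e-07) and by 1.49 in intact dogs (SE 0.33, FDR 0.00338).

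MYC (ENSCAFG00000001086), a transcription factor that drives cell growth, spanned 88.7 to 262 CPM in neutered dogs and 144 to 203 CPM in intact dogs. Its log2 fold change of −0.18 had a fairly narrow 95% interval, from −1.03 to 0.67 (FDR 0.995). CTNNB1 and MYC, the 2 growth regulators tested, had a median of 0.56.

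MKI67 (ENSCAFG00000013255), a nuclear protein present in cycling cells, varied within both groups. It was 435 CPM in PT-1, the highest of all dogs, but 59.4 in PT-4 and 27.8 in PT-8. Neutered dogs had 187, 18.4, 108, 166, 130 and 26.9 CPM in PT-2, PT-3, PT-5, PT-6, PT-7 and PT-9. The highest dog was thus intact, and so were 2 of the 4 lowest. The difference of −0.72 on the log2 scale (95% interval −2.73 to 1.30, FDR 0.984) became 1.26 without PT-1. MKI67 and PCNA, the 2 proliferation genes tested, had a median log2 fold change of −0.36.

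PCNA (ENSCAFG00000006030), the sliding clamp of DNA replication, was closely matched, with 101 ± 32.0 CPM (SD, n = 6) in neutered and 101 ± 51.8 CPM (SD, n = 3) in intact dogs. The difference of −0.0081 on the log2 scale had a 95% interval from −0.89 to 0.88 (FDR 0.999). PT-1 was again the highest dog, at 155 CPM, followed by PT-2 at 151.

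Haemoglobin transcripts, which come from blood, were few in most dogs. Summed over HBA1, HBA2, HBB, HBD and HBM they amounted to 142 CPM of the library total in PT-5, 94.2 in PT-7 and between 1.71 and 14.3 in the 4 other neutered dogs. In intact dogs they were 92.2 in PT-4, 7.01 in PT-1 and 1.10 in PT-8. High and low dogs occurred in both groups, and the mean log2 value differed by 0.81 (exact permutation p = 0.524). The log2 fold changes of HBA1, HBA2 and HBB were −0.15, 0.36 and 0.31 with standard errors from 1.47 to 1.58 (FDR 0.997 to 0.998), and their median was 0.31. HBA1 and HBA2 are near-identical, and how reads were shared between them is uncertain.

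HBD and HBM did not pass the filter. HBM had 2 to 11 counts in the 6 neutered dogs, 8 in PT-4 and 0 in PT-1 and PT-8, and HBD had at most 12 counts in any dog. For HBA1, PT-8 had 0 counts, which at this depth allows up to 0.552 CPM of the library total. This covers counting error only, as reads without molecular identifiers are not independent molecules.

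Each group was also set against the 9 non-malignant tissues. In neutered dogs 7369 of 12669 genes (58.2%) differed at an FDR under 0.05, 3952 up and 3417 down. In intact dogs 4747 of 13191 (36%) differed, 2782 up and 1965 down. The counts rest on 6 and 3 tumours and share the same controls, which were all intact, so they do not measure a difference between the 2 kinds of tumour. With DESeq2 they were 9592 and 5855.

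The 8 named genes other than haemoglobins passed this test in both groups with the same sign. KLK4 had log2 fold changes of −7.72 in neutered and −8.14 in intact dogs, and ACPP −5.96 and −4.52. PMEPA1 rose by 4.39 and 3.79, MKI67 by 5.48 and 6.22, PCNA by 2.29 and 2.32, and MYC by 1.46 and 1.66. The FDR of these values was between 1.09e-07 and 0.00265. HBA1, HBA2 and HBB passed in neither group, with log2 fold changes from −0.12 to 0.50. Fewer cells of a type and less RNA per cell cannot be told apart in these bulk samples.

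Identifiers with the smallest unadjusted p in each direction are given as a description, since that p chose them. ENSCAFG00000023591 was at 28.3, 40.0, 65.0, 39.0, 86.1 and 65.6 CPM in the neutered dogs PT-2, PT-3, PT-5, PT-6, PT-7 and PT-9, and at 10.1, 12.5 and 4.77 CPM in the intact dogs PT-1, PT-4 and PT-8. Its log2 fold change was 2.57 (SE 0.48), with an edgeR FDR of 0.981 and a DESeq2 FDR of 0.00172. ENSCAFG00000008383 was at 65.6 to 130 CPM in neutered and 19.3 to 36.0 CPM in intact dogs, with a log2 fold change of 1.85 (SE 0.36, DESeq2 FDR 0.00647). The lowest neutered dog was thus above the highest intact dog in both.

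In the other direction, ENSCAFG00000019672 was at 47.9 to 61.0 CPM in neutered dogs and at 134, 114 and 84.9 CPM in PT-1, PT-4 and PT-8. Its difference on the log2 scale was −1.04 (SE 0.22, edgeR FDR 0.981, DESeq2 FDR 0.0160). ENSCAFG00000012708 was at 52.5 to 88.5 CPM in neutered and 102 to 231 CPM in intact dogs, with a log2 fold change of −1.23 (SE 0.29) and a DESeq2 FDR of 0.121. The edgeR FDR was 0.981 here as well. These 4 genes kept their separation with both scalings. Over all the alternative settings including those without 1 dog, their log2 fold changes lay at 2.26 to 2.86, 1.69 to 2.21, −1.20 to −0.91 and −1.46 to −0.87.

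Samples that took no part in this choice gave a mixed picture. On the TMM scale over 25 samples, ENSCAFG00000023591 was at 0.761 to 28.5 CPM in non-malignant tissue, where all dogs were intact, against 3.56 to 9.41 in intact and 21.3 to 64.2 in neutered dogs with malignant tissue. ENSCAFG00000019672 was at 17.1 to 39.4 CPM in non-malignant tissue, lower than all 3 intact dogs with malignant tissue, at 63.2 to 100.2 CPM. For ENSCAFG00000008383 non-malignant tissue, at 26.8 to 63.2 CPM, reached into the ranges of both groups, and for ENSCAFG00000012708, at 56.6 to 185 CPM, it spanned that of the intact dogs and overlapped that of the neutered dogs.

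The 2 malignant US-FNA came from neutered dogs and did not fall alike. US-4 was inside the range of the neutered tissues for ENSCAFG00000023591 at 41.6 CPM, for ENSCAFG00000008383 at 78.1 CPM and for ENSCAFG00000012708 at 40.2 CPM. US-3 was inside the range of the intact tissues for ENSCAFG00000008383 at 14.5 CPM and for ENSCAFG00000012708 at 86.3 CPM, and just above it for ENSCAFG00000023591 at 11.1 CPM. For ENSCAFG00000019672, US-3 was inside the neutered range at 44.7 CPM and US-4 lay between the groups at 60.1 CPM. Haemoglobin was also far higher in the aspirates, with 12089 CPM of HBB in US-4 and 19728 CPM in US-3 against at most 41.0 CPM in the malignant tissues, and its part in these values was not tested. The study lists US-3 with strong blood contamination and no RNA integrity number, a measure of how intact RNA is. It lists US-4 with weak contamination and a measured RNA integrity number. The dog of US-3 was aspirated in life and again directly after euthanasia. US-3 is listed after another aspirate of this dog, but the study does not say outright which was taken after euthanasia. The part of RNA quality and sampling in these values was not tested.

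**Figure D3:**
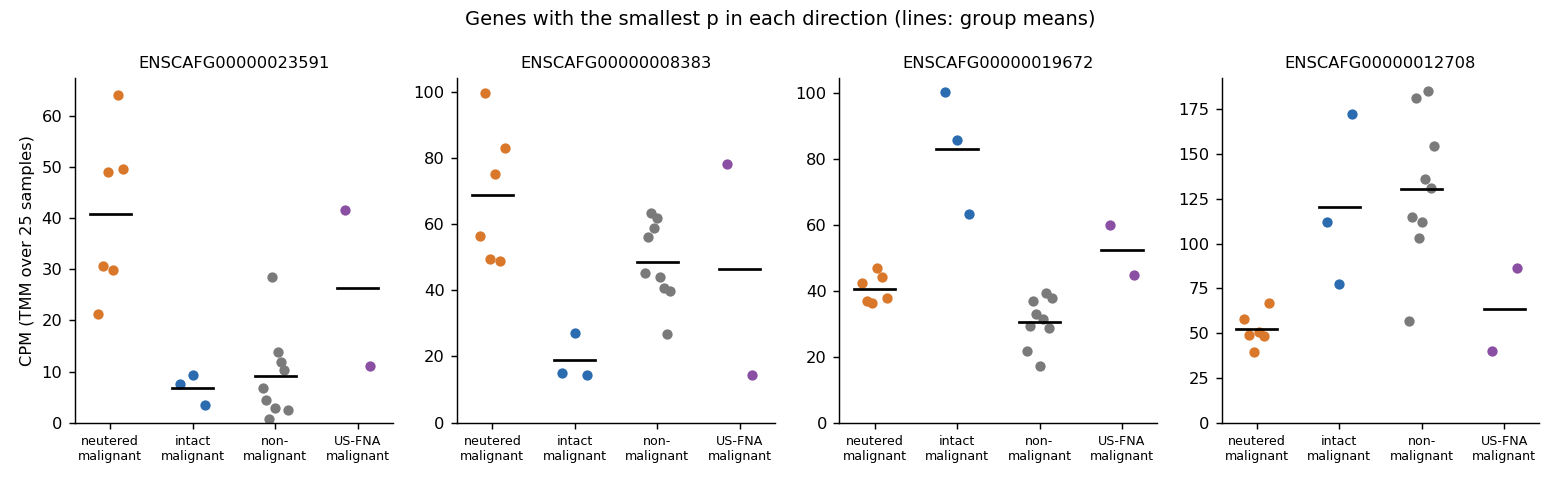
CPM on the TMM scale of all 25 samples (y axis) of 4 identifiers in malignant tissue of 6 neutered and 3 intact dogs, in 9 non-malignant tissues and in 2 malignant US-FNA, with a line at each mean. The first and second identifier are higher and the others lower in neutered than in intact dogs, and the aspirates lie at 11.1 and 41.6, 14.5 and 78.1, 44.7 and 60.1, and 86.3 and 40.2 CPM (US-3, then US-4).

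The tumours were next compared as whole profiles. In a principal component analysis of the 500 genes with the largest variance of log2 CPM, PC1 held 44.7% and PC2 18.1% of the variance. The intact dogs took both ends of PC1, with PT-1 at −80.2 and PT-4 at 44.7, and PT-8 at −29.0. Neutered dogs lay between them, from −23.5 in PT-5 to 41.0 in PT-7. On PC2, PT-8 stood alone at 66.4, whereas the 8 other dogs were between −20.3 and 7.24.

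Mean scores did not differ by reproductive status beyond the spread of the dogs. The difference was 32.2 on PC1 (exact two-sided permutation p = 0.333) and −22.9 on PC2 (exact two-sided permutation p = 0.405), both 0.762 after adjustment over 8 tests, and status accounted for 15.04% and 18.8% of the sums of squares. A relation of age to either component was not detected over the 9 dogs, a number too small to exclude a moderate one. Pearson's r was 0.466 with PC1 (permutation p = 0.190, adjusted 0.256 over 2 relations) and −0.395 with PC2 (permutation p = 0.256, adjusted 0.256). Spearman's rho was 0.496 (permutation p = 0.176, adjusted 0.353) and −0.248 (permutation p = 0.516, adjusted 0.516). Without PT-7 and PT-3, the dogs farthest from the median age, r was 0.196 with PC1 and −0.524 with PC2.

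**Figure D4:**
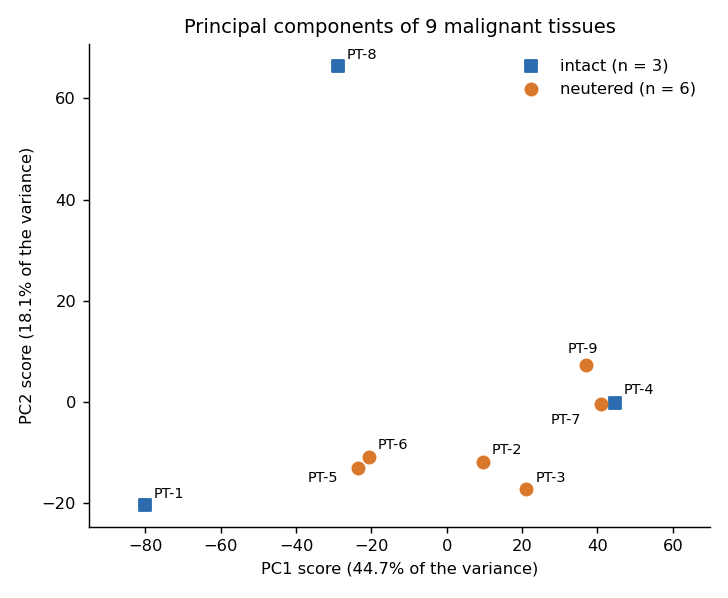
Scores on PC1 (x axis, 44.7% of the variance) and PC2 (y axis, 18.1%) of 9 malignant tissues, 3 intact dogs as squares and 6 neutered dogs as circles. The intact dogs PT-1 and PT-8 lie apart from the rest, whereas the intact dog PT-4 lies among the neutered dogs PT-7 and PT-9.

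Distances over all 13375 genes gave the same arrangement of the dogs in numbers. The Euclidean distance of the log2 CPM was 122 to 175 in the 15 pairs of neutered dogs, with a mean of 145. It was 208 to 243 in the 3 pairs of intact dogs, with a mean of 220, and 122 to 220 in the 18 pairs of different status, with a mean of 177. Each pair of intact dogs was thus farther apart than any pair of neutered dogs. The nearest neighbour of every intact dog was a neutered one, PT-6 for PT-1 (161) and PT-8 (171) and PT-9 for PT-4 (122). With 6 neutered and 3 intact dogs, most possible neighbours were neutered, so this alone says little about status.

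Pairs of different status were on average 19.7 farther apart than pairs of the same status (exact one-sided permutation p = 0.0476). The 18 pairs of the same status were 15 neutered pairs, with a mean of 145, and 3 intact pairs, with a mean of 220. Pairs of different status, with a mean of 177, were on average farther apart than neutered pairs but closer than intact pairs. The difference therefore does not show that dogs of the same status resemble each other in both groups. It was also not stable. The one-sided exact p was 0.0714 with 1 − Spearman correlation, 0.0952 with the 500 genes of the largest variance and between 0.0357 and 0.161 without 1 dog. The difference was 38.3 without PT-4 (exact permutation p = 0.0357) and 11.3 without PT-2 (exact permutation p = 0.161).

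Intact pairs exceeded neutered pairs by 75.1, which none of the 84 assignments of 3 dogs surpassed (exact two-sided permutation p = 0.0238, the smallest possible). This test was chosen after the distances had been seen, and both distance tests had an adjusted p of 0.0476 over the pair of them. The difference was 63.9 without PT-1, 63.3 without PT-4 and 98.0 without PT-8. With 1 pair of intact dogs left, the exact permutation p was 0.0714, 0.143 and 0.0714, where 0.0714 is the smallest that can be reached.

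**Figure D5:**
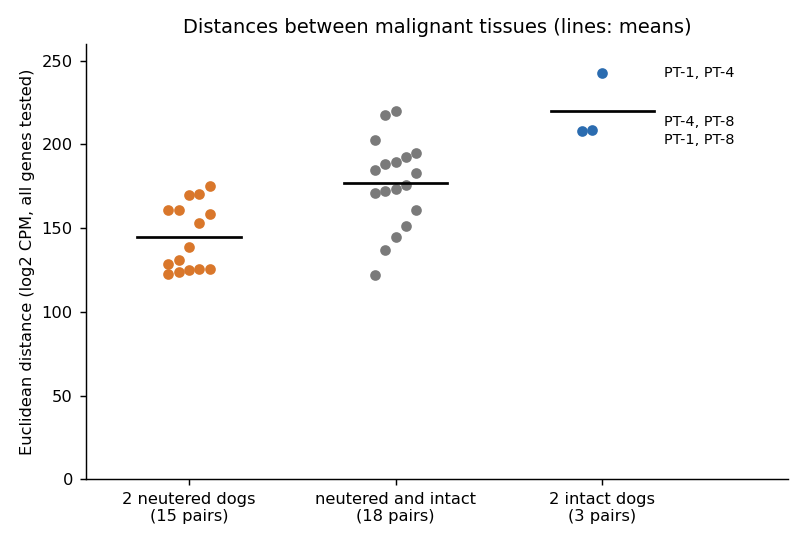
Euclidean distance of log2 CPM over 13375 genes (y axis, starting at 0) for the 15 pairs of neutered dogs, the 18 pairs of different status and the 3 pairs of intact dogs, with lines at the means of 145, 177 and 220. The 3 intact pairs, named beside their points, lie above all 15 neutered pairs.

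The greater spread of the intact dogs can also be described gene by gene. This uses the same log2 CPM as the distances and is not a separate line of evidence. The SD of log2 CPM was larger among the 3 intact than among the 6 neutered dogs in 9318 genes (69.7%), with a median SD of 0.81 against 0.57. A level at least 2 on the log2 scale below the next dog occurred in 268 genes in PT-1, 104 in PT-8 and 62 in PT-4, but in at most 33 in any neutered dog (PT-7). At least 2 above the next dog were 103 genes in PT-8, 59 in PT-1 and 7 in PT-4. Here neutered dogs were as prominent, with 61 genes in PT-3 and 58 in PT-5. Breed differed among the 3 intact dogs and among most of the neutered dogs as well, and its part in this spread was not tested.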

How the data were processed

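Total RNA of canine prostate samples was sequenced by the authors as single reads of 75 bp. According to the study's methods and the submitters' processing notes, reads were demultiplexed with bcl2fastq 2.15.0.4 and CASAVA, trimmed with Trimmomatic 0.32, mapped to CanFam3.1 with TopHat2 and counted per gene of Ensembl release 85 with HTSeq at default settings. The authors deposited raw counts per gene and sample, without normalization or pooling. Whether the libraries kept strand is not given in the sources used here, and overlapping or antisense genes may share reads. The alignments that HTSeq assigned to no gene (59.4% to 62.1% in malignant tissue) were left out of library sizes. Files of the malignant tissues held 32220 identifiers each.

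Genes were kept with edgeR's filterByExpr. It asks for 10 counts, at the median depth, in as many samples as the smaller group holds, taken from either group. It also asks for 15 counts in all. TMM scaling and the quasi-likelihood test of edgeR 4.0.16 (R 4.3.3) compared the 6 neutered with the 3 intact malignant tissues, without covariates, at an FDR under 0.05. Only these 9 samples entered, so that the spread was that of tumours. Log2 CPM used a prior count of 2. DESeq2 1.42.0 was an alternative, as were its size factors in edgeR, other filters, thresholds and sets of samples, age as a covariate, robust dispersions and leaving out each dog. Single values were compared with exact permutation tests over the 84 assignments of the dogs, correlations with age with 99999 permutations (SciPy 1.17.1). Each sample was taken as 1 dog, as labelled. The edgeR and DESeq2 p-values set a group difference against the spread between these dogs. The permutation p-values set an observed value against those of other assignments of the dogs.

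The members and gene lists were chosen with earlier results of these data known. Named genes were those with an identifier in the study or in an earlier account of these data and, as no table pairs the identifiers with names, the 2 identifiers in each direction with the smallest unadjusted p, calls first. RefSeq gene records matched 0 identifiers, so sequences and positions are not given. 1 gene of the study is not reported here.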

Additional observations from a re-analysis of the deposited data

Results flagged for a closer look

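KLK2 in PT-9 stood apart from the other neutered dogs. Its level of 691 CPM compared with 43.1 CPM in the next dog, and this gap made up 0.939 of the range of the 6 dogs, above the 95% critical value of Dixon's test for groups of 6. The test assumes normally distributed values and was run on CPM, not on the log2 scale, so the flag holds for CPM only. Of 23 sets of values from the neutered dogs tested in this way 1 was flagged. Chance flags about 1 in 20 where values are normally distributed. The intact group, with 3 dogs, was too small for this test.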

How the results depend on the processing

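With edgeR, 0 genes were called under each alternative of filter, scaling, threshold, covariate and samples, and DESeq2 called 19. Genes at an unadjusted p under 0.05 numbered 1023 with DESeq2, 1185 without a filter, 1119 in 1 fit of all 25 samples and 376 with age as a covariate, and 495 to 1598 without 1 dog. The log2 fold change of PCNA was 0.0056 without a filter and 0.0055 in the fit of all samples. Without 1 dog it lay between −0.33 and 0.41 for PCNA, −0.69 and 4.61 for KLK2, −0.16 and 0.95 for KLK4, −2.02 and 0.32 for ACPP, −1.22 and 1.26 for MKI67, −1.30 and 3.55 for HBA1, −0.43 and 3.66 for HBA2 and −0.43 and 3.81 for HBB, the last 3 highest without PT-4. PMEPA1, CTNNB1, MYC and the 4 identifiers kept their sign in all 16 alternatives. At an FDR under 0.00001, 1044 genes were called between neutered malignant and non-malignant tissue and 0 between intact malignant and non-malignant tissue. Leaving out 1 dog, the difference in reads on genes (−77765) ranged from −373565 to 100841, that in genes detected (210) from −170 to 510, and that in the share of the 10 most abundant genes (0.060 percentage points) from −0.98 to 0.89, with −1.56 between medians. The distance between pairs of different minus the same status was 0.0327 with 1 − Spearman correlation, 12.9 with 500 genes and 11.3 to 38.3 without 1 dog, and intact minus neutered pairs gave 63.3 to 98.0 without 1 dog. The cause of these changes was not tested. KLK2, KLK4, ACPP and the haemoglobins rested on fewer than 20 counts in several dogs, which limits their precision. No paired analysis was possible because the dogs of both groups were different animals and the labels give no replicate numbers.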

Other observations

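Both malignant US-FNA, which took no part in the comparison, came from neutered dogs and were low in the secretory genes. On the TMM scale over 25 samples, KLK2 was at 3.69 CPM in US-4 and 4.37 CPM in US-3, and ACPP at 9.23 and 1.15 CPM. CTNNB1 was at 1792 CPM in US-4, inside the range of neutered tissues (938 to 1889 CPM), and at 680 CPM in US-3, inside that of intact tissues (258 to 924 CPM). PMEPA1 was at 379 CPM in US-4 and 94.6 CPM in US-3, and PCNA at 65.8 and 153 CPM. MKI67 was at 39.6 CPM in US-4 and 55.9 CPM in US-3, within the range of both tissue groups.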
